A study of Mus musculus with 6 samples.

Results

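Transcripts of 33 genes of the Paf1 complex and of the wider machinery of RNA polymerase II elongation were examined in sorted mouse osteoblasts that carried, or lacked, a conditional deletion of Cdc73, itself a subunit of the Paf1 complex. The genes were taken by symbol from a table of 27179 gene IDs, and all 33 were found there. They comprise the 6 subunits of the Paf1 complex, DSIF, Spt6 with its partner Iws1, FACT, P-TEFb, 3 protein partners of the 7SK RNA, NELF, the super elongation complex, TFIIS, the kinases of the polymerase tail and the tail-binding protein Rprd1b. There were 3 libraries labelled as a Cdc73/Hrpt2 knockout (conditional, with floxed alleles named in the titles) and 3 control libraries labelled wildtype. All 6 came from C57Bl/6J pups aged 5 days. Calvarial cells were freed with collagenase and sorted by transgenic GFP, which Osteocalcin-Cre switches on; osteocalcin is a gene of mature osteoblasts. The sources used here do not say whether control mice carried floxed alleles, which exons were removed, or whether a library came from 1 animal or a pool. All p-values below therefore rest on the variation among these 6 samples, and part of it may be technical.

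RNA polymerase II starts transcription and then often stops a short way into the gene, held there by DSIF and NELF. P-TEFb, a cyclin-dependent kinase, phosphorylates these factors and the polymerase tail, upon which NELF leaves and the Paf1 complex, Spt6, FACT and other factors travel with the polymerase through the gene. Much of the P-TEFb of a cell is kept inactive in a particle made of the 7SK RNA, its capping enzyme Mepce, the RNA-binding protein Larp7 and the inhibitor Hexim1, while the super elongation complex delivers active P-TEFb to genes. Parafibromin, the product of Cdc73, is a tumour suppressor of the parathyroid in humans.

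Library totals ran from 14837272 to 16380767 counts in the libraries labelled knockout and from 13591925 to 20993962 in those labelled wildtype, and the 33 genes together took 0.0994% to 0.123% of the counts in the knockout group and 0.109% to 0.126% in the wildtype group. No member had a count of 0 in any library. Levels are CPM (counts scaled to a common library size) after TMM scaling, a correction for library composition. A log2 fold change is that of knockout relative to wildtype and carries its standard error after ±. That error is the absolute log2 fold change divided by the square root of the F statistic of edgeR's test. It therefore restates the test and is not a separate estimate. The 7 osteoblast markers summed to 146400 to 219100 CPM in knockout and 172000 to 189600 CPM in wildtype, mostly Col1a1, and 0 of them passed the test across all genes. Of the 7, 5 had a negative and 2 a positive log2 fold change. The transcription factor Sp7, at 127 to 182 CPM in knockout and 208 to 244 CPM in wildtype, was lower in every knockout library (-0.62 ± 0.19, adjusted p = 0.277, edgeR). Dmp1, a matrix gene of osteocytes, was higher in every knockout library (0.42 ± 0.16, adjusted p = 0.312, edgeR). All measured chondrocyte, endothelial, macrophage, neutrophil and erythroid markers had positive log2 fold changes, and 3 of the 4 muscle markers tested had negative ones. The summed level of 8 chondrocyte markers was 6450 to 19350 CPM in knockout and 823 to 5533 CPM in wildtype, and that of 7 endothelial markers 114 to 194 CPM in knockout and 34.7 to 112 CPM in wildtype. For 7 macrophage markers it was 131 to 298 CPM in knockout and 73.1 to 113 CPM in wildtype. For 7 neutrophil markers it was 53.2 to 181 CPM in knockout and 19.5 to 51.7 CPM in wildtype. For 5 erythroid markers it was 26.8 to 204 CPM in knockout and 7.16 to 67.1 CPM in wildtype, and for 6 muscle markers 6.17 to 31.4 CPM in knockout and 7.46 to 41.7 CPM in wildtype. Within wildtype, the highest chondrocyte and endothelial sums were those of wildtype 1, at 5533 and 112 CPM. Wildtype 2 and 3 had 823 and 869 CPM for the chondrocyte list and 45.8 and 34.7 CPM for the endothelial list. The macrophage sums of wildtype 1 and 2 were alike, at 113 and 110 CPM. Wildtype 3 had the highest neutrophil and erythroid sums of its group, and wildtype 2 the highest muscle sum. A library at 0 was found for no chondrocyte, macrophage or endothelial marker, for 1 neutrophil marker (Elane, in wildtype 2), and for 2 markers each of the erythroid and muscle lists. The part of this cell mixture in the values below was not tested, and in bulk RNA fewer cells of a type and less RNA per cell cannot be told apart.

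No member passed the test across all genes. Of the 33, edgeR's quasi-likelihood test called 0 at an adjusted p under 0.05, as it called 0% of the 13505 genes tested; limma voom called 0 members. DESeq2 called 1, Hexim1, and 1.84% of all genes tested. All 33 genes entered the test. At an unadjusted p under 0.05 there were 5 members, 4 higher in knockout (Hexim1, Paf1, Rtf1 and Cdk12) and 1 lower (Nelfe). The matching share of all genes tested was 14.6%, or 8.26% higher and 6.35% lower, so the members' 15.2% was close to the background. In 5 members all knockout libraries lay above all wildtype libraries, against 10.6% of all genes, and in 3 all lay below, against 9.81% of all genes. The members' median log2 fold change was 0.16, with 21 positive and 12 negative, beside -0.006 for all genes tested, of which 49.3% were positive and 50.7% negative. Scaling by library size alone shifted the median of all genes to -0.21 and that of the members to -0.041, with 14 members positive.

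**Figure D1:**
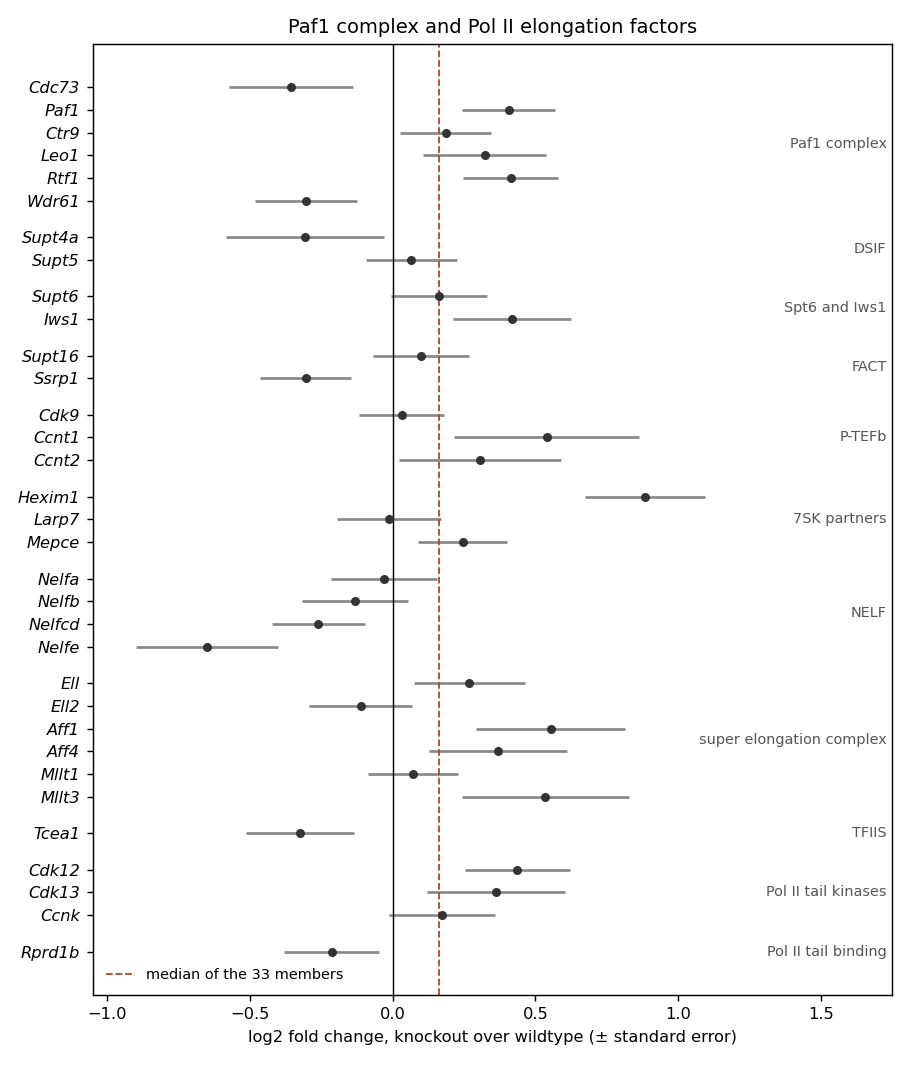
Log2 fold change of knockout over wildtype (x axis) for each of the 33 genes, grouped by complex down the page. Points are edgeR estimates from 3 libraries a group and bars 1 standard error, derived from the F statistic of the test. Hexim1 lies farthest to the right at 0.88 and Nelfe farthest to the left at -0.65; the dashed line marks the members' median of 0.16.

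The spread was mostly on the wildtype side. The wildtype SD of log2 CPM exceeded the knockout SD in 29 of 33 members, and in 78.1% of all genes tested. Wildtype 1 lay nearer to the knockout mean than to the mean of wildtype 2 and 3 in 25 of 33 members, against 69.7% of all genes. With wildtype 1 as the only control the members' median was 0.033. These counts were made after the values were seen. Transcript length also moved with the fold changes. Over the 33 genes Spearman's rho between log2 fold change and exon length was 0.46, over 13224 genes with a length it was 0.31, and the genes share the same 6 libraries. The median exon length was 4664 bases in the 21 positive members and 2679 bases in the 12 negative ones. The part of length in the differences was not tested.

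**Figure D2:**
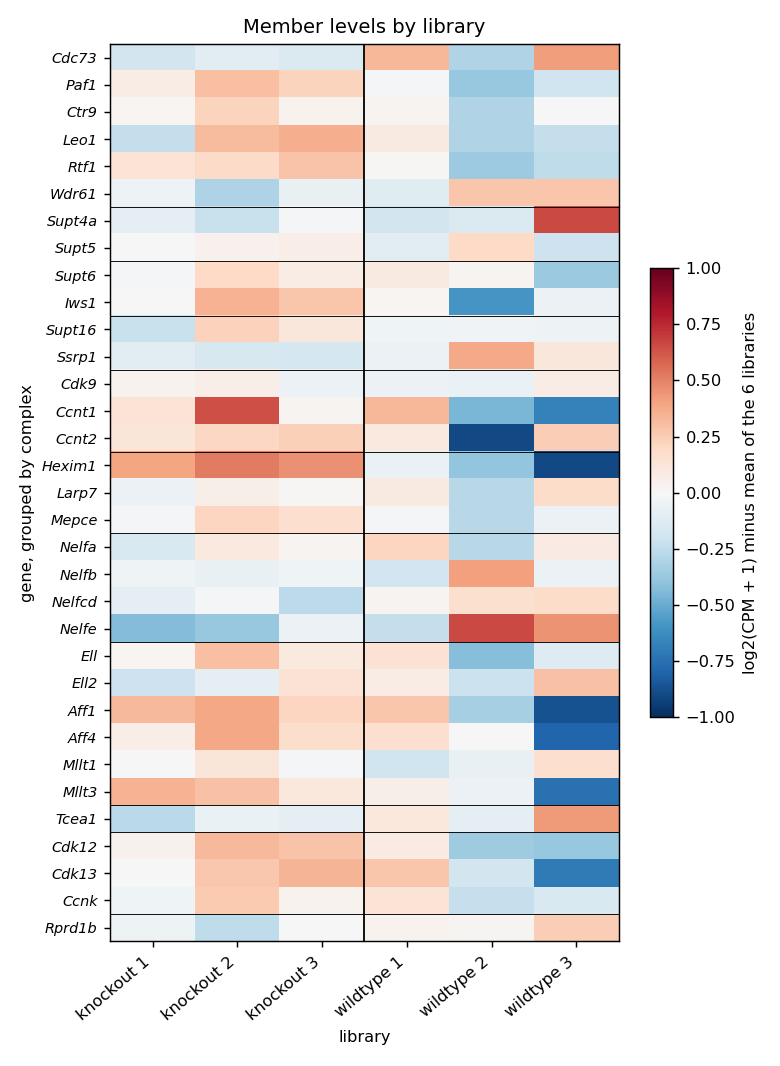
Level of each gene (rows, grouped by complex) in each library (columns, knockout left of the line, wildtype right of it) as log2(CPM + 1) minus the mean of the 6 libraries, red above and blue below. The column of wildtype 1 resembles the knockout columns in many rows, and the deepest blue fields lie in wildtype 2 and 3, as for Ccnt2, Hexim1, Aff1 and Aff4.

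Cdc73, the targeted gene, did not report the deletion clearly. Its level was 13.98, 14.73 and 14.40 CPM in knockout libraries 1, 2 and 3, against 20.50, 12.80 and 21.73 CPM in the libraries labelled wildtype 1, 2 and 3. The knockout values were almost level, and the library labelled wildtype 2 lay below all of them, so the groups overlapped and the directions given here rest on the labels. The log2 fold change was -0.36 ± 0.22 (edgeR quasi-likelihood test, adjusted p = 0.428). The counts cover the whole gene, whose exons span 11586 bases in GENCODE's basic set but only 1593 coding bases, and reads from exons left in place would not show the loss of others. A measure free of library scaling is the share of Cdc73 among the counts of the 6 Paf1 complex subunits. It was 10% (95% Wilson interval 8.89% to 11.3%), 9.52% (8.37% to 10.8%) and 9.33% (8.09% to 10.7%) in knockout 1, 2 and 3, against 14.2% (13.0% to 15.4%), 10.7% (9.3% to 12.2%) and 15.5% (14.1% to 17.1%) in wildtype 1, 2 and 3. On this scale all 3 knockout libraries lay below all 3 wildtype libraries. The intervals of wildtype 2 and of the knockout libraries overlap, and they cover counting error only. The share also depends on the other subunits. The summed level of the 6 was lowest in wildtype 2, at 119.9 CPM, against 139.1 to 154.8 CPM in knockout. The place of wildtype 2 above the knockout libraries therefore reflects the other subunits and not more Cdc73, whose CPM was lowest there. The means were 9.63 ± 0.372% in knockout and 13.5 ± 2.51% in wildtype (SD, n = 3 each), and a two-sided exact permutation test gave p = 0.1, the smallest that 3 against 3 libraries allow.

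The share was computed for every gene of the complexes with at least 2 listed members, 31 shares in all, after the levels had been seen. The groups did not overlap in 6 of them, or 19.4%, close to the 20.4% of all genes whose CPM did not overlap. The 6 were Cdc73, Paf1 and Rtf1 within the Paf1 complex and all 3 proteins of the 7SK particle, and shares within 1 complex are not independent, since they add up to the whole. Each had p = 0.1 in the exact permutation test, so none could pass after adjustment over the 31.

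Paf1 and Rtf1 were the subunits with non-overlapping levels in CPM after TMM scaling. Paf1, which gives the complex its name and binds Leo1, measured 29.88, 34.96 and 33.15 CPM in knockout 1, 2 and 3 and 27.93, 21.49 and 24.42 CPM in wildtype 1, 2 and 3. Rtf1, which in yeast is needed for ubiquitination of histone H2B, measured 27.00, 28.08 and 29.95 CPM in knockout and 24.61, 18.78 and 20.36 CPM in wildtype. In both genes wildtype 1 came closest to the knockout libraries. Their log2 fold changes were 0.41 ± 0.16 and 0.41 ± 0.17, with an adjusted p of 0.32 for each in edgeR's quasi-likelihood test. Paf1 took 21.8 ± 0.64% of the complex's counts in knockout and 18.2 ± 0.972% in wildtype, and Rtf1 took 19.0 ± 0.729% in knockout and 15.8 ± 1.24% in wildtype (SD, n = 3 each). With library size alone both log2 fold changes were smaller, 0.199 for Paf1 and 0.203 for Rtf1. They were also smaller with wildtype 1 as the only control, 0.21 for Paf1 and 0.19 for Rtf1.

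The remaining subunits differed by less or had overlapping groups. Ctr9, the large scaffold with tetratricopeptide repeats, had a log2 fold change of 0.19 ± 0.16, and of -0.016 with library size alone. Leo1, the partner of Paf1, stood at 0.32 ± 0.22, with knockout 1 at 15.42 CPM among the wildtype values of 14.74 to 19.63 CPM while knockout 2 and 3 reached 23.07 and 23.94 CPM. Wdr61, a subunit that the Ski complex of RNA decay also contains, was the only subunit besides Cdc73 with a negative value, at -0.30 ± 0.18. Its levels were 21.48, 17.79 and 21.14 CPM in knockout 1, 2 and 3 and 20.37, 27.12 and 27.17 CPM in wildtype 1, 2 and 3. Of its exon bases 42.9% overlap Dnaja4 on the opposite strand, and the sources used here do not state whether counting used strand, so reads of this pair cannot be told apart. Smaller overlaps with a gene on the opposite strand were found for Supt16 (19.8%), Supt5 (11.5%) and Ccnt1 (9.4%).

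Per length of transcript, Cdc73 had the lowest level of the 6 subunits, 5.10 ± 0.527 TPM in knockout and 6.42 ± 1.77 TPM in wildtype, and Paf1 the highest, 67.1 ± 8.94 TPM in knockout and 50.01 ± 9.81 TPM in wildtype (TPM, counts per base of exon scaled to a common sum, SD, n = 3 each). Between them lay Leo1 (39.1 ± 8.64 TPM in knockout, 31.1 ± 7.32 in wildtype), Ctr9 (31.8 ± 5.08 in knockout, 27.4 ± 4.48 in wildtype), Rtf1 (24.9 ± 1.57 in knockout, 18.6 ± 3.98 in wildtype) and Wdr61 (22.4 ± 1.90 in knockout, 27.2 ± 2.64 in wildtype). Leo1 and Ctr9 differed by less than the SD of Leo1 in both groups, and so did Ctr9 and Wdr61 in wildtype. In TPM the Paf1 groups overlapped, with knockout 3 at 61.06 and wildtype 1 at 61.2. The order depends on the length used. Divided by coding length, an alternative chosen after seeing the data, Cdc73 came to 37.1 TPM in knockout and 46.7 TPM in wildtype, and Wdr61 became the highest, at 90.1 TPM in knockout and 109 TPM in wildtype.

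**Figure D3:**
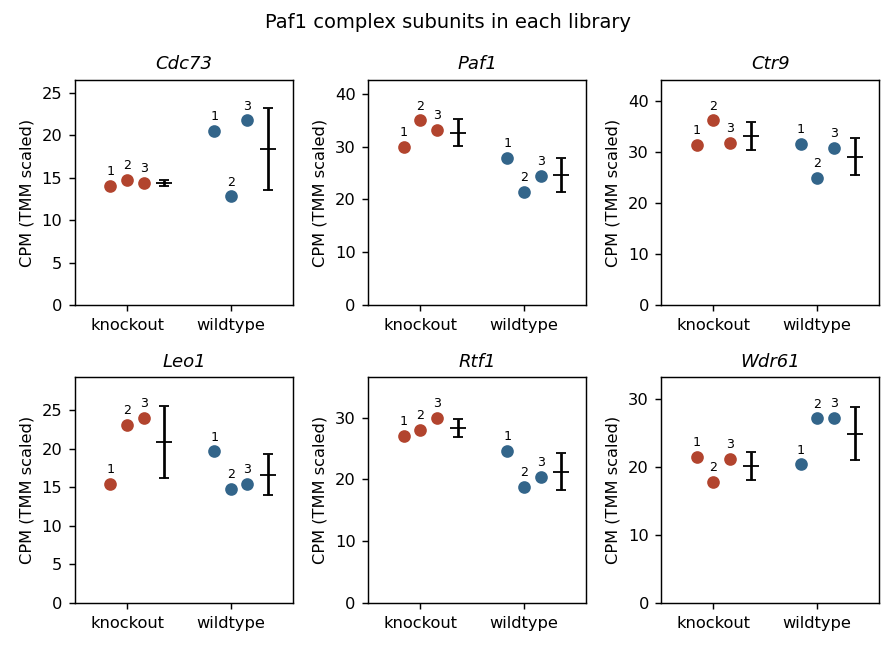
CPM after TMM scaling (y axis, from 0) of the 6 Paf1 complex subunits in each library; numbers beside the points are the replicate numbers and the bars beside them mean ± SD of 3 libraries. For Paf1 and Rtf1 all knockout points lie above all wildtype points, and for Cdc73 the point of wildtype 2 lies below the knockout points.

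To show the regions from which these transcripts start, the 250 bases upstream of the annotated start are printed for the targeted gene, for the pair of subunits with separate groups, and for Hexim1, the gene with the largest positive difference (RefSeq, build GRCm38.p6, 5′ to 3′ on the gene's strand). Capitals mark matches, on either strand, to 8 motifs, none of which contains another. TATAAA is a form of the TATA box, and TATATAA is a longer form of it. CCAAT is the box bound by NF-Y, and GGGCGG is the GC box bound by Sp1. GCATGCGC is the core of the motif of NRF1, CACGTG is the E-box, TGACGTCA is the cAMP response element, and CCGGAAG is bound by ETS factors. The motifs were listed with these promoters in view.
Cdc73 (chr1:143702894-143703143, minus strand): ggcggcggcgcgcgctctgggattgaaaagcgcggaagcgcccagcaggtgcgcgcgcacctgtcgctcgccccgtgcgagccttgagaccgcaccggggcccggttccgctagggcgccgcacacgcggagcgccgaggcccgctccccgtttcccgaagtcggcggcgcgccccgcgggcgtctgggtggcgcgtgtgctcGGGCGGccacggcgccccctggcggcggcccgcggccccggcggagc
Paf1 (chr7:28392746-28392995, plus strand): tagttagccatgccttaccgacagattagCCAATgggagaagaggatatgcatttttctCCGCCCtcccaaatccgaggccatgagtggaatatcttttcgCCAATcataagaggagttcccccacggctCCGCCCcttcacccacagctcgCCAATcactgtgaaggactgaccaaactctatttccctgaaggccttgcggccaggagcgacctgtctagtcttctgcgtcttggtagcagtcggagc
Rtf1 (chr2:119674818-119675067, plus strand): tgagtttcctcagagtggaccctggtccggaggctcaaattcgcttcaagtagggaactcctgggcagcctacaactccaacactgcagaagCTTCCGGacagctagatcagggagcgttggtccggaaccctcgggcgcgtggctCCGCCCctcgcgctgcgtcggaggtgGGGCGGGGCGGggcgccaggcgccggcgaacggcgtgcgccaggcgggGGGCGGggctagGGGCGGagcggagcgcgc
Hexim1 (chr11:103116075-103116324, plus strand): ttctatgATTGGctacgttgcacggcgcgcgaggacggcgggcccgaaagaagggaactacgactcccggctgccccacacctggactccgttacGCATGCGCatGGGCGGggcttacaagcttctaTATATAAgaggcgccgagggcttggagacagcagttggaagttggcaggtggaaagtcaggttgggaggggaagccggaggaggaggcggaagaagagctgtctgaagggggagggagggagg
The Hexim1 window was the only one of 29 member windows (26 of the 33 genes) with TATATAA, present in 3.04% of all 32851 windows of this length, and the only one with GCATGCGC, present in 2.26% of all. It also held CCAAT, as did the Paf1 window and 33.8% of all windows. GGGCGG was in all 4 windows printed, in 23 of 29 member windows and in 32.7% of all. Member windows were richer in G and C than the whole, with a median of 64.8% against 52.4%, and in CG pairs, with a median of 24 against 6. CCGGAAG was in the Rtf1 window, in 7 of 29 member windows and in 6.91% of all. A match in such a window is a string of letters and not a binding site.

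Among the 33 genes the largest positive log2 fold change was that of Hexim1. Hexim1, which with the 7SK RNA binds P-TEFb and blocks its kinase, measured 94.61, 103.2 and 98.89 CPM in knockout 1, 2 and 3, against 68.41, 54.46 and 38.03 CPM in wildtype 1, 2 and 3. All knockout libraries lay above all wildtype libraries, and the wildtype values were much more scattered. The means were 98.9 ± 4.29 CPM in knockout and 53.6 ± 15.2 CPM in wildtype (SD, n = 3 each), a 1.84-fold difference and a log2 fold change of 0.88 ± 0.21. It ranked 78 of 13505 genes by p and missed the threshold (edgeR quasi-likelihood test, adjusted p = 0.273). Both DESeq2 (0.89, adjusted p = 0.0114) and edgeR without wildtype 1 (1.08, adjusted p = 0.0384) called it, in fits that called 248 genes (1.84%) and 409 genes (2.96%), while with wildtype 1 as the only control the value was 0.52 (adjusted p = 0.947); over all alternatives it was positive, between 0.52 and 1.08, with an adjusted p from 0.0114 to 0.947.

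The other parts of the 7SK particle differed among themselves. Rn7sk, the 7SK RNA itself and not one of the 33 genes, measured 92.81, 128.9 and 110.1 CPM in knockout and 49.31, 53.34 and 34.93 CPM in wildtype, a log2 fold change of 1.27 ± 0.20 (adjusted p = 0.273, edgeR). Mepce, which caps the 7SK RNA, measured 33, 38.85 and 37.68 CPM in knockout and 32.96, 27.33 and 32 CPM in wildtype. The Mepce groups were separate only by the narrow gap between knockout 1 and wildtype 1, and the log2 fold change was 0.25 ± 0.16 (adjusted p = 0.437, edgeR), or 0.037 with library size alone. Larp7, which protects the 3′ end of the RNA, measured 16.0 ± 0.694 CPM in knockout and 16.2 ± 2.79 CPM in wildtype, a log2 fold change of -0.013 ± 0.18. Since the RNA lacks a poly(A) tail, its count depends on how RNA was selected for the libraries, which the sources used here do not state, and its many near-copies in the genome make the count uncertain. Some other structural or nuclear RNAs, picked after the values were seen, were likewise higher in every knockout library, as were 10.6% of all genes tested. They are not a full count of such RNAs. Each had an unadjusted p of 0.00242 or less in edgeR's test, so separate groups come with the choice. Their log2 fold changes were 1.23 for Rpph1, 1.25 for Rmrp, 1.84 for Snora73a, 1.37 for Malat1, 1.26 for Neat1 and 0.94 for mt-Rnr1, so a difference of this size was not particular to the 7SK RNA. None of them passed edgeR's test (adjusted p of 0.244 for Rpph1 and 0.273 for the others).

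Ratios within a library do not depend on its scaling. Hexim1 had 6.18, 6.19 and 6.13 counts per Larp7 count in knockout 1, 2 and 3, against 3.99, 4.19 and 2.07 in wildtype 1, 2 and 3. Set against the kinase Cdk9, the ratio was 3.86, 4.11 and 4.32 in knockout and 2.99, 2.39 and 1.51 in wildtype. Neither pair of groups overlapped, and the exact permutation test on log2 ratios, two-sided, gave p = 0.1 for each, the smallest this design allows. The ratios were chosen after the values were seen. Hexim1 levels were already separate, while Larp7 and Cdk9 had log2 fold changes of only -0.013 and 0.032. The separation of the ratios therefore restates that of Hexim1 and is no independent support. The counts behind these ratios are not corrected for length, so a ratio compares libraries and not amounts of the 2 genes.

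**Figure D4:**
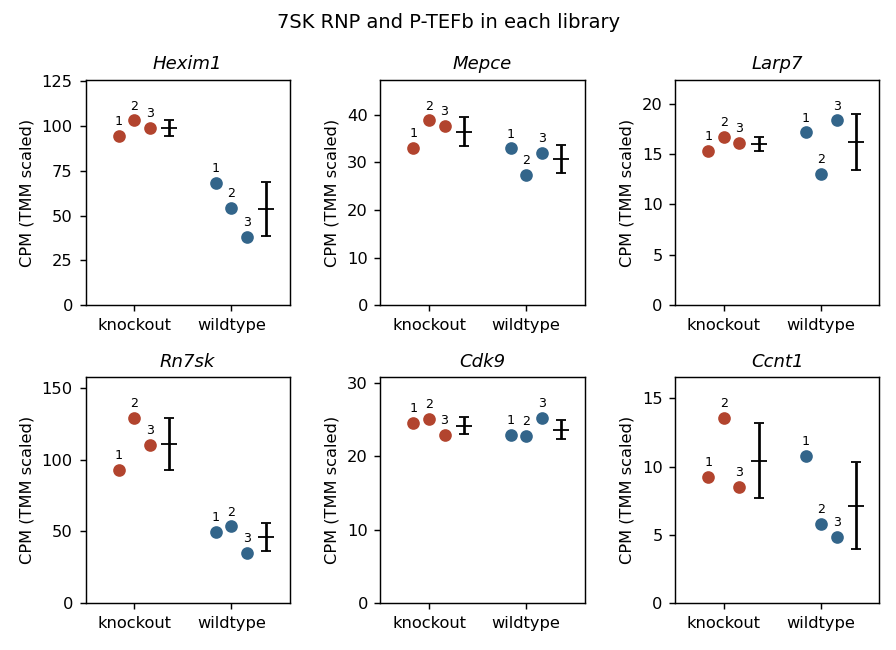
CPM after TMM scaling (y axis, from 0) of 7SK particle components and of P-TEFb genes in each library, with replicate numbers beside the points and mean ± SD of 3 libraries beside them. Hexim1 and Rn7sk separate by label, with Hexim1 at 94.6 to 103 CPM in knockout and 38.0 to 68.4 CPM in wildtype, while Cdk9 lies between 22.8 and 25.2 CPM in all 6 libraries.

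All 3 P-TEFb genes gave positive values, with overlapping groups. Cdk9, the kinase, had nearly the same level in every library, at 24.54, 25.09 and 22.87 CPM in knockout and 22.91, 22.81 and 25.20 CPM in wildtype (log2 fold change 0.032 ± 0.15, and -0.17 with library size alone). Its cyclin Ccnt1 measured 9.24, 13.55 and 8.47 CPM in knockout and 10.75, 5.77 and 4.84 CPM in wildtype, a log2 fold change of 0.54 ± 0.32 (adjusted p = 0.421, edgeR). Here wildtype 1 exceeded 2 knockout libraries, and with it as the only control the value was -0.055. The alternative cyclin Ccnt2 stood at 0.31 ± 0.28 and was low in wildtype 2 alone, at 7.58 CPM, against 16.09 and 17.97 CPM in wildtype 1 and 3 and 16.44 to 17.85 CPM in the knockout libraries.

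All 4 NELF subunits had negative values, with a median of -0.20, and 1 had an unadjusted p under 0.05. Nelfe, the RNA-binding subunit, measured 14.04, 14.66 and 18.51 CPM in knockout 1, 2 and 3, against 16.26, 31.16 and 26.75 CPM in wildtype 1, 2 and 3. Wildtype 1 lay inside the knockout range and the other wildtype libraries above it. The log2 fold change was -0.65 ± 0.25 (adjusted p = 0.31, edgeR); without wildtype 1 it was -0.90 and passed (adjusted p = 0.0477), and with wildtype 1 as the only control it was -0.060. Nelfcd, a core subunit that in humans is made as the C or the D form, was lower in every knockout library, at 15.48, 16.54 and 13.74 CPM in knockout and 17.05, 18.78 and 19.05 CPM in wildtype (-0.26 ± 0.16, adjusted p = 0.437, edgeR). Nelfa (-0.030 ± 0.19) and Nelfb (-0.13 ± 0.19) differed by less than 1 standard error, and their signs turned in single fits with 1 library left out.

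DSIF, the partner of NELF at paused polymerases, showed no separation. Supt5, its large subunit and a target of P-TEFb, measured 84.9 ± 1.7 CPM in knockout and 81.1 ± 12.3 CPM in wildtype (log2 fold change 0.066 ± 0.16, and -0.14 with library size alone). The small subunit Supt4a measured 7.98, 7.16 and 8.39 CPM in knockout and 7.39, 7.65 and 14.09 CPM in wildtype, with wildtype 3 far above the other libraries, and its log2 fold change of -0.31 ± 0.28 was 0.050 without wildtype 3. A similar gene, Supt4b, exists in the mouse, and how reads common to both were counted is not given.

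The histone chaperones went both ways. Ssrp1, the FACT subunit with an HMG box, was lower in every knockout library, at 80.22, 77.21 and 76.26 CPM in knockout and 82.97, 112.5 and 93.38 CPM in wildtype. That is a log2 fold change of -0.31 ± 0.16 (adjusted p = 0.383, edgeR), and wildtype 1 lay just above the knockout libraries. Its partner Supt16 had a log2 fold change of 0.099 ± 0.17, and -0.11 with library size alone, with all 3 wildtype libraries between 26.63 and 26.92 CPM inside the knockout range of 23.46 to 32.59 CPM. Per exon length, Ssrp1 had the highest mean of the 33 transcripts, at 118 ± 12.5 TPM in knockout and 143 ± 19.6 TPM in wildtype. In knockout it did not differ beyond its SD from Hexim1, at 116.5 ± 13.4 TPM, which was the higher of the pair in knockout 2 and 3. The order depends on the length used, since 1068 of the 3495 exon bases of Hexim1 are coding, against 2124 of 2721 for Ssrp1. Supt6, which chaperones histones behind the polymerase, stood at 0.16 ± 0.17, and at -0.041 with library size alone. Its partner Iws1 measured 21.30, 27.31 and 26.00 CPM in knockout and 21.60, 13.77 and 20.36 CPM in wildtype, a log2 fold change of 0.42 ± 0.21 (adjusted p = 0.369, edgeR).

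Of the super elongation complex 5 of 6 genes were positive, or 4 with library size alone, and none had an unadjusted p under 0.05. Aff1, a scaffold of the complex, measured 55.08, 57.40 and 51.09 CPM in knockout 1, 2 and 3, against 53.16, 34.57 and 23.53 CPM in wildtype 1, 2 and 3. Wildtype 1 lay within the knockout range, and the log2 fold change of 0.55 ± 0.26 (adjusted p = 0.354, edgeR) was 0.89 without that library and 0.026 with it as the only control. The related scaffold Aff4, the most abundant of the 6 by CPM, gave 0.37 ± 0.24 with a like pattern, at 125.2, 156.4 and 135.5 CPM in knockout and 134.9, 119.6 and 68.6 CPM in wildtype. Mllt3, also called AF9, which binds acylated histones through its YEATS domain, had the lowest mean level per exon length, 4.64 ± 0.832 TPM in knockout and 3.18 ± 1.23 TPM in wildtype. That was within 1 SD of Cdc73 in knockout (5.10 ± 0.527 TPM) and of Ccnt1 in wildtype (3.99 ± 2.10 TPM). By CPM Mllt3 was higher in every knockout library, at 7.50, 7.16 and 6.17 CPM in knockout and 5.95, 5.43 and 2.98 CPM in wildtype, a log2 fold change of 0.54 ± 0.29 (adjusted p = 0.394, edgeR). Its relative Mllt1, also called ENL, stood at 0.070 ± 0.16, and at -0.13 with library size alone. The elongation factors Ell (0.27 ± 0.19) and Ell2 (-0.11 ± 0.18) had overlapping groups, with Ell2 at 72.48 to 92.72 CPM in knockout and 71.98 to 103 CPM in wildtype.

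The kinases of the polymerase tail also gave positive values. Cdk12, which with cyclin K phosphorylates the tail and in mammals is needed for full expression of long DNA repair genes, measured 28.74, 35.16 and 34.22 CPM in knockout 1, 2 and 3 and 29.60, 21.56 and 21.20 CPM in wildtype 1, 2 and 3. The groups overlapped through knockout 1 and wildtype 1. The log2 fold change was 0.44 ± 0.18 (adjusted p = 0.329, edgeR), and 0.13 with wildtype 1 as the only control. Cdk13 (0.36 ± 0.24) and their cyclin Ccnk (0.17 ± 0.19) had larger errors relative to their values, and with wildtype 1 as the only control they stood at -0.083 and -0.058. With library size alone Ccnk stood at -0.030. Tcea1, the TFIIS form that lets a backtracked polymerase resume, measured 13.62, 15.91 and 15.47 CPM in knockout and 18.01, 15.58 and 22.69 CPM in wildtype (-0.32 ± 0.19, adjusted p = 0.414, edgeR). Rprd1b, which binds the phosphorylated tail, was lower in every knockout library by narrow gaps, at 17.70, 15.22 and 18.43 CPM in knockout and 18.88, 18.71 and 21.97 CPM in wildtype (-0.21 ± 0.17, adjusted p = 0.522, edgeR).

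**Figure D5:**
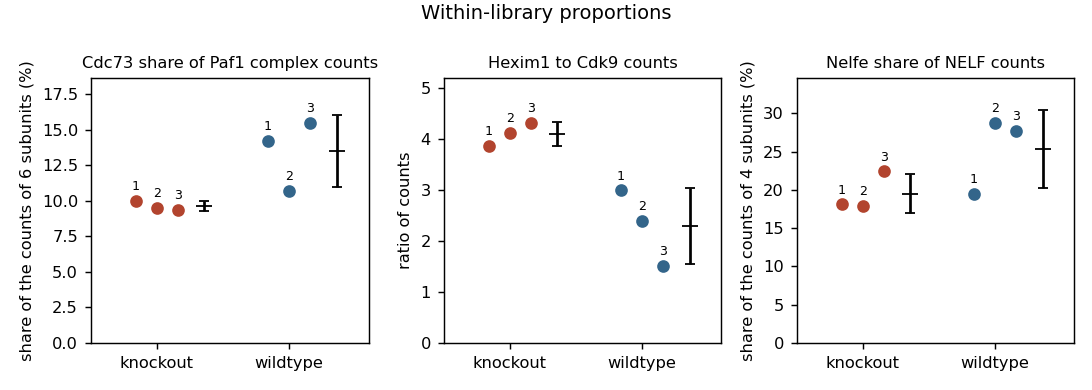
Within-library proportions that do not depend on scaling: the share of Cdc73 among the counts of the 6 Paf1 complex subunits, the ratio of Hexim1 to Cdk9 counts, and the share of Nelfe among the counts of the 4 NELF subunits (y axes from 0; points are libraries with replicate numbers, bars mean ± SD). The groups are separate for Cdc73 (9.33% to 10% in knockout, 10.7% to 15.5% in wildtype) and for the Hexim1 ratio, and overlap for Nelfe.

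Other genes of the same pathway were read from lists drawn up from textbook knowledge. Of the 13 genes of polymerase II subunits and the associated Polr2m, 2 were positive and 11 negative, with a median of -0.24; 0 passed the test across all genes, and 1 in each direction had an unadjusted p under 0.05. Polr2a, the largest subunit, which carries the tail, measured 124.1, 138.6 and 113.4 CPM in knockout and 102.4, 84.64 and 52.96 CPM in wildtype. The log2 fold change was 0.65 ± 0.23 (adjusted p = 0.302, edgeR) with separate groups. Polr2e, a subunit shared by all nuclear polymerases, went the other way at -0.62 ± 0.23 (adjusted p = 0.308, edgeR). It measured 28.0 ± 2.41 CPM in knockout and 43.0 ± 13.3 CPM in wildtype. Its groups overlapped, with wildtype 1 at 27.8 CPM inside the knockout range of 25.3 to 29.94 CPM. The next by p were Polr2g (-0.40 ± 0.21), with overlapping groups, and Polr2k (-1.02 ± 0.60, adjusted p = 0.414, edgeR), lower in every knockout library. Polr2k was barely detected, at a mean of 0.431 CPM for the knockout group against 0.872 CPM for wildtype. Its fold change rests on few reads, 5 to 7 per knockout library and 10 to 19 per wildtype library.

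Among 26 other elongation regulators 24 were tested, 13 positive and 11 negative, with a median of 0.15 and 0 past the test; 2 in each direction had an unadjusted p under 0.05. Ctdp1, a phosphatase of the polymerase tail, measured 18.2 ± 1.88 CPM in knockout and 12.0 ± 3.82 CPM in wildtype (log2 fold change 0.60 ± 0.24), and Rprd1a, the relative of Rprd1b, 6.75 ± 0.649 CPM in knockout and 4.33 ± 0.683 CPM in wildtype (0.63 ± 0.24). Ccnh and Mnat1, which with Cdk7 form the kinase of TFIIH, stood at -0.52 ± 0.18 and -0.42 ± 0.18, while Cdk7 itself stood at -0.041 ± 0.17. In Ctdp1, Rprd1a, Ccnh and Mnat1, the 4 of smallest p in the list, the groups did not overlap. They were picked by p in the same libraries, so separate groups largely come with the choice. Of the 24 tested, all knockout libraries lay above all wildtype libraries in 5 and below them in 2. The matching shares of all genes tested were 10.6% and 9.81%. Over both lists together Spearman's rho between log2 fold change and exon length was 0.71 in 37 genes, which share the same 6 libraries, and the median exon length was 4956 bases in the 15 positive genes and 1359 bases in the 22 negative ones.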

How the data were processed

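Raw counts of reads per gene were deposited by the authors in 1 table of 27179 Entrez gene IDs by 6 libraries, with no normalization; 0 columns were left over. Per the submitters' processing notes, CASAVA 1.7, Subread and featureCounts were used with build mm10; strand use, filters and annotation are not stated in them. Symbols came from RefSeq GRCm38.p6 and exon lengths from GENCODE M21 (basic set, union of exons), the same assembly. TPM was computed from the counts over the IDs with a length, which held 75.3% to 80.1% of knockout and 86.5% to 88.4% of wildtype counts. Genes were filtered with filterByExpr, scaled by TMM (factors 0.813 to 1.09) and tested with edgeR 4.0.16 in R 4.3.3 (two-sided quasi-likelihood test, 3 knockout against 3 wildtype libraries, no covariates). P-values were adjusted by Benjamini-Hochberg over 13505 genes, with a threshold of 0.05. The biological coefficient of variation was 24.2%. Simulated counts with known changes were also put through the fit. They had the same scatter for every gene, so that run checked the code and not the error rates in these libraries. Alternatives were other scalings and filters, DESeq2 1.42.0, limma 3.58.1 (voom), a replicate block and leaving out each library. The use of wildtype 1 as the only control and of coding length was added after seeing the data, as were shares, ratios and counts of signs and unadjusted p-values. The members, lists and tests were chosen with earlier results of these data known. Per-library values are given for Cdc73, members with an unadjusted p under 0.05 or separate groups, and the member of smallest p in each complex; all 33 members and Rn7sk could be named. Lists gave up to 4 genes of smallest p.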

Additional observations from a re-analysis of the deposited data

How the results depend on the processing

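Members had 50 to 3086 counts per library, and each group had 3 libraries. The number of members called was 0, except for 1 with DESeq2 (Hexim1) and 0 to 2 when 1 library was left out, the 2 being Hexim1 and Nelfe without wildtype 1. Over all genes 0 were called, against 24 with no filter, 248 with DESeq2 and 0 to 409 when 1 library was left out, the 409 without wildtype 1. Members with an unadjusted p under 0.05 numbered 5, against 2 with wildtype 1 as the only control and 1 to 11 when 1 library was left out (1 without knockout 2 or wildtype 3, 11 without wildtype 1). The members' median of 0.16 was -0.041 with library size alone and 0.033 with wildtype 1 as the only control, a fit that assumes that this lone library varies like the knockout libraries. Of 495 member values under the alternatives 464 kept their sign and side of the threshold, and 18 of 33 members kept their sign in all, Cdc73 (-0.57 to -0.23) among them.

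With library size alone the sign turned for Ctr9 (-0.016), Supt5 (-0.14), Supt6 (-0.041), Supt16 (-0.11), Cdk9 (-0.17), Mllt1 (-0.13) and Ccnk (-0.030). With wildtype 1 as the only control it turned for Supt4a (0.075), Supt6 (-0.0094), Ccnt1 (-0.055), Nelfb (0.13), Ell (-0.011), Cdk13 (-0.083) and Ccnk (-0.058). When 1 library was left out, values crossed 0 for Supt4a (-0.50 to 0.050), Supt5 (-0.028 to 0.18), Supt16 (-0.0032 to 0.22), Cdk9 (-0.010 to 0.070), Larp7 (-0.16 to 0.074), Nelfa (-0.18 to 0.066), Nelfb (-0.27 to 0.056), Ell2 (-0.25 to 0.008) and Mllt1 (-0.032 to 0.17). The cause of these turns was not tested.

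Whether the replicate numbers pair the samples could not be settled. Deviations of same-numbered libraries from their group means correlated at 0.045, -0.058 and 0.27, and knockout 2 correlated best with wildtype 1 (0.42). Deviations within a group sum to 0, so these correlations depend on each other and cannot exclude a pairing. With the replicate block 236 genes and 0 members were called, 3 members had an unadjusted p under 0.05, and Larp7 turned to 0.00025.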
